A study of Rattus norvegicus with 40 samples.

Results

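The proteasome genes of the rat right ventricle were followed in pulmonary hypertension induced by hypoxia or by SU5416 with hypoxia, and after carvedilol. Members were taken by name: every array probe whose annotated gene symbol starts with Psma, Psmb, Psmc, Psmd, Psme, Psmf or Psmg. This found 82 of 43379 spots. Of these, 80 name 1 gene, and the 2 that name both Psma3l and Psma3 were left out. The 80 probes stand for 49 genes, of which 46 had enough values to be tested among 9775 tested genes. Psma8, Psmb11 and Psme4 were not tested, and Psmd14 and Psmg3 were not analysed here. By role, the tested genes were 7 of the alpha ring, 7 constitutive and 3 inducible genes of the beta ring, 9 of the 19S base, 7 of the 19S lid, 4 activators or inhibitors, 6 assembly chaperones and 3 others. The name rule also takes in Psmc3ip and Psme3ip1, which encode proteins that bind a subunit and are not subunits themselves, and the Psma3-like gene Psma3l. These 3 are kept apart as the others.

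The 26S proteasome degrades proteins tagged with ubiquitin. Its barrel, the 20S core, is built of stacked alpha and beta rings, and the cutting sites lie on the beta subunits Psmb5, Psmb6 and Psmb7. Interferon swaps these for Psmb8, Psmb9 and Psmb10, which form the immunoproteasome. A 19S cap sits on an end of the barrel: its base holds the ATPases Psmc1 to Psmc6 that unfold the substrate, and its lid removes the ubiquitin chain. Psme1 and Psme2 form an alternative cap. In the heart the proteasome clears damaged and contractile proteins. Transcription of the subunit genes can be raised together by the factor Nfe2l1, which acts through antioxidant response elements.

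Right ventricles came from 24 male Sprague-Dawley rats with a body weight of 200 g, in 4 groups of 6. Carvedilol animals received 1 injection of 20 mg/kg SU5416, a VEGF receptor inhibitor, and 4 weeks in 10% oxygen, then the beta blocker carvedilol at 15 mg/kg daily for 4 weeks at room air. SuHx animals received SU5416 and hypoxia in the same way and, per the series' design text, 2 weeks at sea level. Hypoxia animals spent 4 weeks in 10% oxygen without SU5416, and normal animals were untreated. No vehicle group is used here, and the time since hypoxia differs between the groups, so drug and recovery time cannot be told apart in carvedilol animals. Likewise, SU5416 and the time at sea level cannot be told apart in SuHx against hypoxia animals.

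All arrays carried a common RNA from rat cell lines in the Cy3 channel. Each value is therefore the log2 ratio of the ventricle to that reference: it can be compared between animals for a gene, but not between genes as an amount of RNA. Values in a row of 3 below are the lowest, median and highest of the 6 animals of a group. Differences are log2 differences between group means with the standard error of the limma fit over all tested genes. A gene is said to have risen or fallen only where the Benjamini-Hochberg adjusted p over the 9775 genes was under 0.05. In whole tissue, fewer cells of a type and less RNA per cell cannot be told apart.

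Cardiomyocyte markers were high, as the labelled tissue calls for: all 12 cardiomyocyte genes were tested, and the mean of the 10 measured in every animal was 4.76, 5.54 and 6.67 in carvedilol animals, 3.92, 4.59 and 4.87 in SuHx animals, 3.50, 4.21 and 4.42 in hypoxia animals and 3.57, 3.93 and 4.71 in normal animals. Groups differed over the whole array. The median log2 difference of all tested genes from normal animals was -0.32 in carvedilol animals, -0.12 in SuHx animals and -0.39 in hypoxia animals. It was 0.26 for SuHx against hypoxia animals and -0.20 for carvedilol against SuHx animals. After quantile normalisation the difference of SuHx from hypoxia animals was 0.16. Averaged over an animal's arrays, values were held for 22759 to 28400 spots in hypoxia animals and 28192 to 35758 in normal animals. The SD of the log2 ratios within an array, averaged in the same way, was 1.99 to 2.17 and 1.57 to 1.81 in these groups. Single arrays held 19264 to 30126 spots in hypoxia animals and 26335 to 35758 in normal animals. Their SDs were 1.88 to 2.38 and 1.57 to 1.81. Whether this shift and these array properties take part in the differences below was not tested.

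Proteasome genes varied less than most. The median residual SD of the 46 genes was 0.367, against 0.742 for all tested genes, and 45 of the 46 had a value in every animal, against 6279 of 9775. In normal animals the group means ran from -1.64 for Psmd5, a chaperone of the base, to 1.57 for Psme1. The mean lay above the cell-line reference for 17 of 46 genes in carvedilol animals, 22 in SuHx animals, 17 in hypoxia animals and 24 in normal animals. Over the 5 comparisons 13 genes passed the test at least once and 33 never did. How many of all tested genes passed at least once was not counted. By comparison, 0.931% to 12.4% of all tested genes passed.

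**Figure D1:**
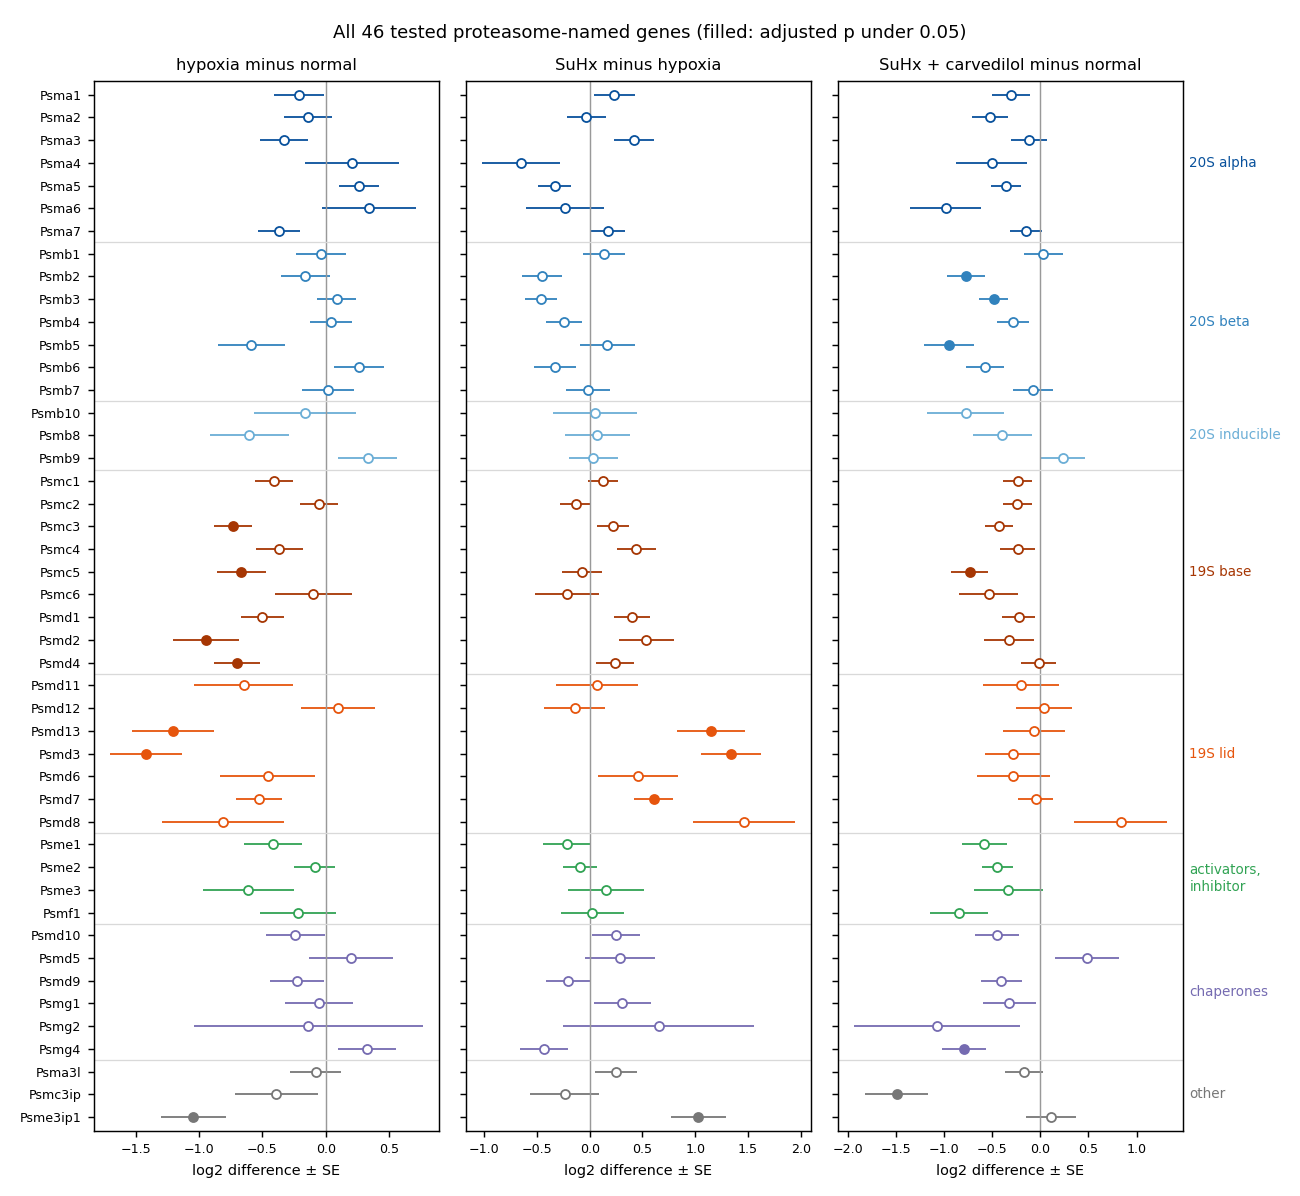
Log2 differences with standard errors (x axis) of the 46 tested genes, ordered by role (y axis), in hypoxia minus normal, SuHx minus hypoxia and SuHx with carvedilol minus normal. Filled points passed at an adjusted p under 0.05: 7, 4 and 6 genes. In the first panel 6 of the 7 lie in the 19S base and lid and the other is Psme3ip1, and in the last 3 of the 6 lie in the 20S beta ring.

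In hypoxia animals 6 of 16 tested genes of the 19S cap fell, and no gene of the 20S core passed the test. Against normal animals, 7 of the 46 genes fell and none rose, and 6 of the 7 encode 19S subunits: Psmd3 and Psmd13 of the lid, and Psmc3, Psmc5, Psmd2 and Psmd4 of the base. The other was Psme3ip1. The share that fell, 15.2%, stands beside 11.5% of all tested genes that fell and 0.89% that rose. Without adjustment 12 of the 46 had a p under 0.05, or 26.1%, against 28.1% of all tested genes, and 35 of the 46 were lower, or 76.1%, against 72.4%.

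Psmd3, a scaffold subunit of the lid, had log2 ratios of -2.53, -1.58 and -0.96 in hypoxia animals, against -1.12, -0.12 and 0.33 in normal animals (lowest, median and highest). All 6 hypoxia animals lay below the normal mean, although the ranges overlapped. The difference was -1.42 ± 0.29 (adjusted p = 0.0027) by limma. It was the lowest adjusted p among the 46 genes, and it stayed under the threshold in every alternative and omission that could test it. The probe had a value on 38 of 40 arrays, so Psmd3 was not tested in the setting with probes complete on every array.

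The promoter of Psmd3 is printed because it was the only one of the 7 genes that fell to hold an antioxidant response element core, the binding motif of Nfe2l1 and Nfe2l2. The window runs from 250 bases before to 50 after the annotated start (chr10:84139688-84139987, plus strand, GRCr8, RefSeq), is written 5′ to 3′ on the gene's strand in lower case, and has the match to TGACNNNGC in capitals. The match lies after the start, on the opposite strand, so the capitals read as its reverse complement.
Psmd3: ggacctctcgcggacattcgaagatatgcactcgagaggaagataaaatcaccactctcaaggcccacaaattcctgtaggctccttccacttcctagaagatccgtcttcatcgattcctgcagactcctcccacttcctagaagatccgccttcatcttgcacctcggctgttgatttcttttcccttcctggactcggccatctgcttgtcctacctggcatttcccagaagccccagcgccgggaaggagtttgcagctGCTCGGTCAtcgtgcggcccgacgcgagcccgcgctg

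Among the ATPases of the base, Psmc3 separated the groups completely. Its log2 ratios were -0.81, -0.39 and -0.21 in hypoxia animals, against 0.06, 0.34 and 0.40 in normal animals, a difference of -0.73 ± 0.15 (adjusted p = 0.00289). It was the only proteasome gene without overlap between hypoxia and normal animals, where 6.34% of all tested genes lay wholly lower. Psmc5, another ATPase of the ring, had 0.45, 0.88 and 1.30 in hypoxia animals, against 1.26, 1.46 and 1.95 in normal animals. Its ranges touched, and it fell by 0.67 ± 0.19 (adjusted p = 0.0265). That call was lost on leaving out hypoxia animal 5, normal animal 4 or normal animal 5, and with a term for animal numbers over 100.

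The other base subunits that fell bind ubiquitin or its carriers. Psmd4, a ubiquitin receptor, had -0.80, -0.42 and 0.21 in hypoxia animals, against 0.10, 0.21 and 0.80 in normal animals, and the difference was -0.70 ± 0.18 (adjusted p = 0.0141). Psmd2, the scaffold that docks shuttle proteins and deubiquitinases, had -2.38, -0.90 and -0.62 in hypoxia animals, against -0.82, -0.04 and 0.22 in normal animals, with a difference of -0.94 ± 0.26 (adjusted p = 0.0211). Its 2 probes gave unequal sizes, -1.41 and -0.47, of which only the larger passed when probes were tested singly, and without normal animal 5 the gene did not pass. One hypoxia animal, at -2.38, lay far below the other 5. Both genes overlapped between groups, with every hypoxia animal below the normal mean.

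In the lid, Psmd13 followed Psmd3. Its ratios were -3.37, -1.67 and -1.40 in hypoxia animals, against -1.95, -0.45 and -0.36 in normal animals, and it fell by 1.21 ± 0.32 (adjusted p = 0.0166). After quantile normalisation it did not pass. Psme3ip1, whose product binds the nuclear activator Psme3, had -1.95, -0.48 and -0.09 in hypoxia animals, against -0.19, 0.39 and 0.70 in normal animals, and the difference was -1.05 ± 0.26 (adjusted p = 0.0103). One hypoxia animal at -1.95 stood apart from the rest.

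**Figure D2:**
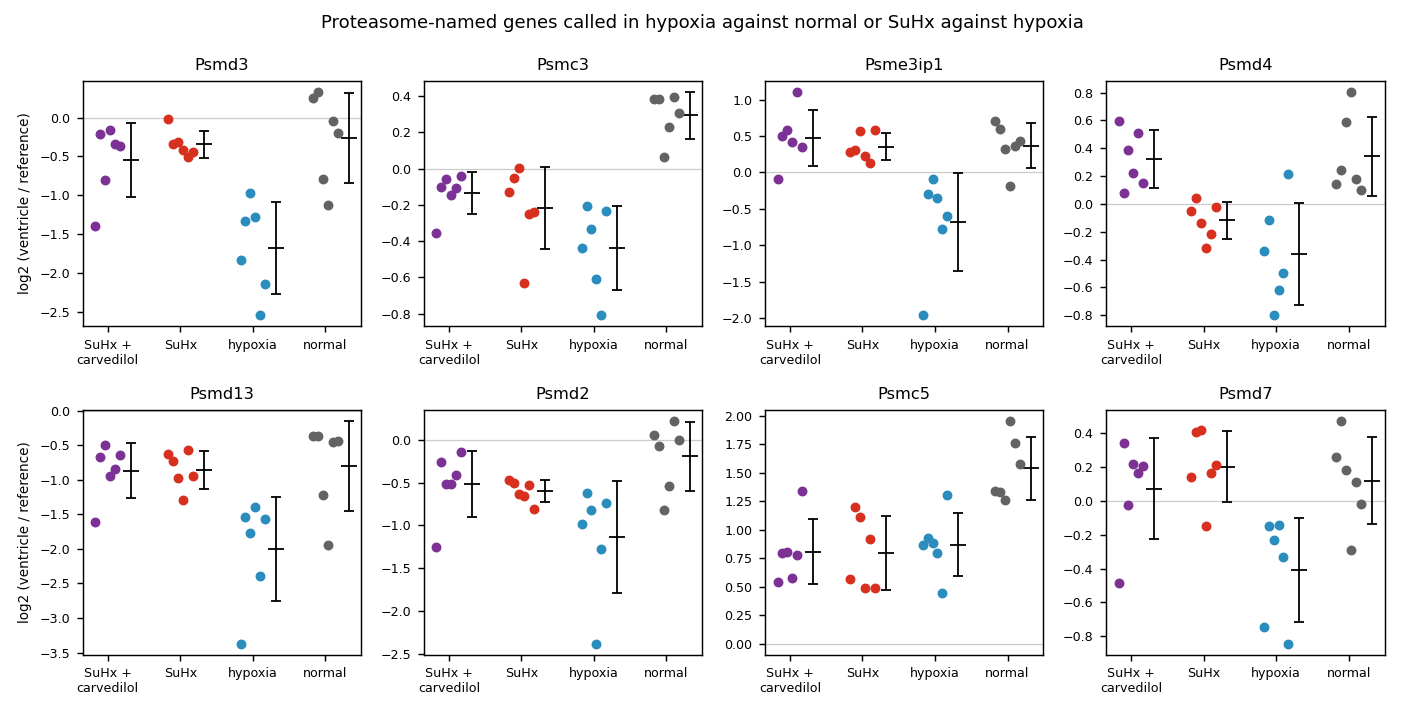
Log2 ratio of ventricle to reference (y axis) in each of 24 animals, by group, for the 7 genes that fell in hypoxia against normal animals and for Psmd7, which rose in SuHx against hypoxia animals. Points are animals and bars the mean with SD. In Psmc3 the hypoxia points, up to -0.21, lie below all normal points, and Psmd3 and Psmd13 of SuHx animals lie above all those of hypoxia animals.

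Counted over the whole cap, 6 of the 16 tested 19S genes fell, 15 were lower and the median difference was -0.59. The base had a median of -0.50, with 4 of 9 fallen, and the lid -0.65, with 2 of 7. In 9 of the 16 genes every hypoxia animal lay below the normal mean, a count that was not made over all tested genes. Next in line were Psmd1, a base scaffold, at -0.50 (adjusted p = 0.057) and Psmd7, a lid subunit, at -0.53 (adjusted p = 0.0639). Psmd12 was the only 19S gene that was not lower, at 0.10. The median of all tested genes, -0.39, lies between the cap and the core.

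In the 20S core none of 17 genes passed, 9 were lower and the median was -0.04. At an unadjusted p under 0.05 there were 2. In the alpha ring Psma7 came nearest at -0.37 (adjusted p = 0.148), followed by Psma3 at -0.33 (adjusted p = 0.272). In the beta ring the chymotrypsin-like subunit Psmb5 was at -0.59 (adjusted p = 0.143), and its 2 probes were at -1.19 and 0.01. The caspase-like subunit Psmb6 was higher, at 0.26 (adjusted p = 0.407). Activators and inhibitor had a median of -0.32 and chaperones of -0.10, with no gene passing in either. Psme3, the nuclear activator, was at -0.61 (adjusted p = 0.279).

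Animal by animal, the mean of the 16 cap genes was -0.54, -0.36 and -0.01 in hypoxia animals and -0.04, 0.30 and 0.44 in normal animals. The mean of the 17 core genes was -0.32, -0.13 and 0.08 in hypoxia animals and -0.24, -0.05 and 0.02 in normal animals. The cap ranges met only at their ends, whereas the core ranges lay over each other. Cap minus core was -0.45, -0.15 and 0.05 in hypoxia animals, against -0.06, 0.41 and 0.48 in normal animals. These means are a description, and the difference between cap and core was not tested.

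**Figure D3:**
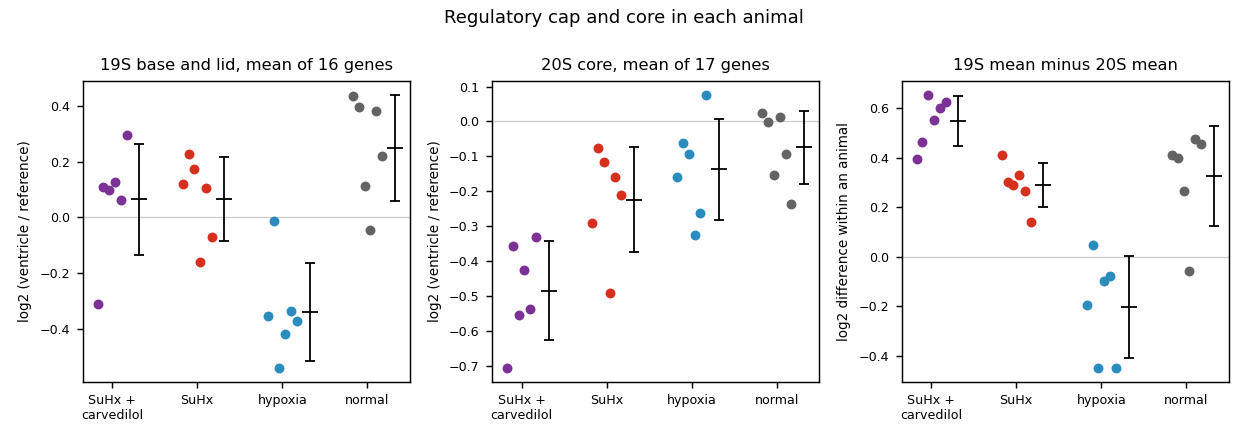
Mean log2 ratio of the 16 tested 19S genes, of the 17 tested 20S genes, and 19S minus 20S (y axes) in each animal by group, with the mean and SD of 6 animals. The 19S minus 20S means are 0.55 in carvedilol animals, 0.29 in SuHx animals, -0.20 in hypoxia animals and 0.33 in normal animals.

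Among single probes, 9 of the 65 proteasome probes tested fell, beside 9.78% of all 21567 probes. Of 14 genes with several probes, only 6 had probes that shared a sign in hypoxia against normal. Of the cell type markers, 1 of 12 cardiomyocyte genes fell (Ryr2, -4.33, adjusted p = 0.00162), 1 of 11 macrophage genes fell (C1qc, -1.51, adjusted p = 0.0096), and none of 7 lymphocyte, 6 endothelial or 6 fibroblast genes passed. Of 3 erythroid genes Slc4a1 fell (-3.28, adjusted p = 0.0224). The 10 macrophage genes with all values averaged 0.62, 0.86 and 1.12 in hypoxia animals and 0.96, 1.17 and 1.56 in normal animals. Their part in the result was not tested. Fitted on the 2 groups alone, without the spread of the others, Psmd3 was the only gene of the 7 to pass.

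The share of empty spots was compared too. Of the 80 proteasome spots, 81.5% had a value in hypoxia animals and 86.6% in normal animals, a difference that an exact two-sided permutation test over animals placed at p = 0.0563 (adjusted over 5 comparisons, 0.216). Of the 7 genes that fell, Psmc3, Psmc5, Psmd2 and Psmd4 had a value on all 40 arrays. With probes complete on every array, those 4 fell again together with Psmc1 and Psmd1. That made 6 of the 35 proteasome genes tested in that setting, or 17.1%, where 24.7% of all genes tested passed in either direction.

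SuHx animals gave no proteasome gene that passed the limma test against normal animals. At an unadjusted p under 0.05 there were 6, or 13.0%, against 12.6% of all tested genes, and 92 of all tested genes passed, 0.389% higher and 0.552% lower. The median of the 46 genes was -0.11, the 20S core -0.11 and the 19S cap -0.14. Yet 5 genes did not overlap between the groups, all lower in SuHx animals, where 4.21% of all tested genes lay wholly lower. They were Psmc5, Psmc3, Psmd4, Psmb2 and Psmb3.

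Psmc5 had 0.49, 0.74 and 1.20 in SuHx animals, against 1.26, 1.46 and 1.95 in normal animals, and a difference of -0.74 ± 0.19 (adjusted p = 0.0656) by limma. After quantile normalisation 2 genes passed, Psmc5 and Psmc3, and Psmc5 passed on leaving out SuHx animal 2 or SuHx animal 3. Psmc3 had -0.63, -0.19 and 0.01 in SuHx animals, against 0.06, 0.34 and 0.40 in normal animals, a difference of -0.51 ± 0.15 (adjusted p = 0.102). Every SuHx animal was below every normal animal in both. Psmb2, a beta subunit without a cutting site, was at -0.61 (adjusted p = 0.136) and Psmb3, its neighbour in the ring, at -0.38 (adjusted p = 0.288). Psmd4 was at -0.46 (adjusted p = 0.269). With probes complete on every array Psmb2, Psmc3 and Psmc5 passed, 3 of the 35 genes tested there, where 8.01% of all genes passed.

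Set against hypoxia animals, SuHx animals had 4 risen genes among the 46 and none fallen: Psmd3, Psmd13 and Psmd7 of the lid, and Psme3ip1. The share that rose, 8.70%, lies near that of all tested genes, of which 9.78% rose and 1.79% fell. This comparison shares its hypoxia animals with the one against normal, so that a shift of those animals enters both.

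Psmd3 had -0.51, -0.38 and -0.02 in SuHx animals, against -2.53, -1.58 and -0.96 in hypoxia animals, a difference of 1.34 ± 0.29 (adjusted p = 0.00436) in the limma fit. Psmd13 had -1.29, -0.84 and -0.57 in SuHx animals, against -3.37, -1.67 and -1.40 in hypoxia animals, a difference of 1.15 ± 0.32 (adjusted p = 0.0226). In both genes the 6 SuHx animals lay above all hypoxia animals. Psme3ip1 separated the groups too, with 0.14, 0.30 and 0.59 in SuHx animals, against -1.95, -0.48 and -0.09 in hypoxia animals and a difference of 1.03 ± 0.26 (adjusted p = 0.0121). Psmd7 overlapped, with -0.15, 0.19 and 0.42 in SuHx animals, against -0.84, -0.28 and -0.14 in hypoxia animals, and rose by 0.61 ± 0.19 (adjusted p = 0.035). Its 3 probes gave 0.44, -0.16 and 1.54, and the last alone passed when tested singly. The call of Psmd7 was lost on leaving out any of 6 animals in turn (hypoxia 1 and 6, SuHx 2, 3, 5 and 6).

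The lid subunit Psmd8 also lay wholly higher in SuHx animals, at 1.46 ± 0.48 (adjusted p = 0.0512), and 6.04% of all tested genes did so. Hypoxia animal 3 at -4.30 lay far below the other 5, and without it the difference of Psmd8 was 0.85 (adjusted p = 0.0371). The 16 cap genes had a median of 0.32, the 17 core genes of -0.02, with 9 lower. Psmb3 was the nearest to the threshold in the core, at -0.46 (adjusted p = 0.0514). It fell in 3 other scalings, as the only fallen gene each time. Quantile normalisation gave 3 risen and 1 fallen, and centring or equal spread of the arrays 4 risen and 1 fallen. The risen genes changed: Psmd13 did not pass after quantile normalisation or at equal spread, and Psmd7 did not after quantile normalisation.

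The count changed when hypoxia arrays or animals were left out. Without the 2 sparsest hypoxia arrays, 6 genes rose and 3 fell (Psmb10, Psmb3 and Psmg4). Psmb10 then rested on its probe at -0.63 alone, because its other probe had values in only 4 hypoxia animals and dropped out. Without hypoxia animal 2 there were 6 risen and 1 fallen, and without hypoxia animal 3 there were 5 risen and 2 fallen. Over all tested genes, leaving out 1 animal of either group gave 820 to 1213 passing genes, and 11.6% passed with all animals. The share of all genes at each of these omissions is not given here. With probes complete on every array, 1 gene rose (Psmd8) and 4 fell (Psma4, Psmb10, Psmb3 and Psmb5), and none of the 4 main calls was among them. These were 5 of 35 genes tested there, or 14.3%, where 26.1% of all genes passed. Psmd3, Psmd13 and Psme3ip1 have 1 probe each, which lacked a value on some arrays and was not tested there. With a term for animal numbers over 100, Psmd3 and Psme3ip1 still passed and Psmd7 and Psmd13 did not. On single probes 5 of 65 rose, near the 8.52% of all probes that did. Of the macrophage genes 4 of 11 rose (among them C1qa, 1.35, adjusted p = 0.0161), and the mean of 10 was 1.53, 1.95 and 2.49 in SuHx animals against 0.62, 0.86 and 1.12 in hypoxia animals. Their part in the result was not tested.

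No proteasome gene passed the limma test in carvedilol against SuHx animals, and 7 had an unadjusted p under 0.05, or 15.2%, against 16.8% of all tested genes. All tested genes gave 0.307% higher and 0.624% lower. In the 20S core 15 of 17 genes were lower with a median of -0.16, and in the 19S cap 8 of 16 were lower with a median of -0.00. The median of all tested genes was -0.20.

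Psma6, an alpha subunit, depended on the probe. Its gene value was -1.09 (adjusted p = 0.147), while its 4 probes ran from -2.20 to -0.38. Carvedilol animal 5 at -2.69 lay far below the rest, and without it the difference of Psma6 was -0.65 (adjusted p = 0.201). Psmb6 was at -0.51 (adjusted p = 0.193), Psmb5 at -0.53 (adjusted p = 0.316) and the inhibitor Psmf1 at -0.65 (adjusted p = 0.278). Without carvedilol animal 1 Psmb5 was at -0.29 (adjusted p = 0.579), and without carvedilol animal 6 Psmf1 was at -0.28 (adjusted p = 0.432). Psmg4, a chaperone of alpha ring assembly, had -0.26, 0.05 and 0.44 in carvedilol animals, against 0.58, 0.71 and 0.94 in SuHx animals and no overlap, at -0.68 (adjusted p = 0.141). Psmc3ip was also wholly lower, at -0.86 (adjusted p = 0.187) with carvedilol animal 5 and -0.53 (adjusted p = 0.316) without it, and Psmd4 wholly higher, at 0.44 (adjusted p = 0.225). Wholly lower and wholly higher genes made up 2.15% and 1.4% of all tested genes.

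Against normal animals, carvedilol animals had 6 fallen genes and none risen, 13.0% of 46. Over all tested genes 8.75% fell and 2.27% rose. Among the 6 were 3 of the core: Psmb2, Psmb3 and Psmb5 of the beta ring. Whether this makeup differs from that in hypoxia animals was not tested. The rest were the ATPase Psmc5, the chaperone Psmg4 and Psmc3ip. Lower values were found in 40 of the 46 genes, or 87.0%, against 69.3% of all tested genes. An unadjusted p under 0.05 was found in 14, or 30.4%, against 26.6% of all. The normal animals are shared with the comparison of hypoxia animals.

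Psmb5 carries the chymotrypsin-like site. Its log2 ratios were -0.92, 0.40 and 0.61 in carvedilol animals, against 0.95, 1.11 and 1.45 in normal animals, without overlap, and it fell by 0.95 ± 0.26 (adjusted p = 0.022) in the limma fit. One carvedilol animal at -0.92 lay apart from the other 5. Its 2 probes gave -0.66, which passed when tested singly, and -1.25, which did not. Psmb2 had -1.05, -0.89 and -0.70 in carvedilol animals, against -0.54, -0.18 and 0.80 in normal animals, a difference of -0.77 ± 0.19 (adjusted p = 0.013). The carvedilol animals kept within a narrow range below all normal animals.

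Both promoters hold an antioxidant response element core ahead of the start and are shown for that reason. The windows are built as for Psmd3 (RefSeq, GRCr8), at chr5:144254808-144255107, plus strand and chr15:32047330-32047629, minus strand, with the match to TGACNNNGC in capitals. It lies at -68 to -60 from the start in Psmb2 and at -60 to -52 in Psmb5.
Psmb2: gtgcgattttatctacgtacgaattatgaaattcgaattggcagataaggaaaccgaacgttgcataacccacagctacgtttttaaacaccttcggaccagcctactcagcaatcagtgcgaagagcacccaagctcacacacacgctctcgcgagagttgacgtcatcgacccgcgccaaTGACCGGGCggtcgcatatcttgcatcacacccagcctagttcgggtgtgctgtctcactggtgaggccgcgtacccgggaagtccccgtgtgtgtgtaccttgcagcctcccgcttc
Psmb5: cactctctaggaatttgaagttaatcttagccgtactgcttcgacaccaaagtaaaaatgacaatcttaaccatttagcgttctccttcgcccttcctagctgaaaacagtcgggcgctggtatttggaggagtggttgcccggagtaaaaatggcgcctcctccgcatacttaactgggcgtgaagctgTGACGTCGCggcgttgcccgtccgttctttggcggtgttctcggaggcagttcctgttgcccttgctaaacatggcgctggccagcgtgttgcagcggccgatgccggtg

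Of 49 genes 44 had a promoter window of 300 bases. TGACNNNGC was found on either strand in 8 of them (18.2%), in 4 of 16 core genes and in 2 of 14 cap genes, against 3342 of 27457 windows of all genes (12.2%). Holders were Psma3, Psmb2, Psmb5, Psmb6, Psmd1, Psmd3, Psmd9 and Psme4. Of the genes that fell, the core was in 1 of 7 in hypoxia and 2 of 6 in carvedilol animals. A match is only a description of these letters and says nothing of binding.

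Psmb3 had -0.77, -0.67 and -0.41 in carvedilol animals, against -0.32, -0.20 and 0.18 in normal animals and a difference of -0.48 ± 0.15 (adjusted p = 0.044), the highest adjusted p of the 6. It was lost in 9 of 12 other settings and on leaving out 9 of 12 animals in turn (carvedilol 1, 2, 4 and 6, normal 1 to 5). Psmg4 had -0.26, 0.05 and 0.44 in carvedilol animals, against 0.54, 0.87 and 1.12 in normal animals, a difference of -0.79 ± 0.23 (adjusted p = 0.0285). It was lost without normal animal 2, 3 or 4, or carvedilol animal 6. In each of the 2 genes the groups did not overlap.

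Psmc5 had 0.54, 0.78 and 1.34 in carvedilol animals, against 1.26, 1.46 and 1.95 in normal animals, and fell by 0.73 ± 0.19 (adjusted p = 0.0176). Across the groups set against normal animals this ATPase was at -0.73 in carvedilol animals, -0.74 in SuHx animals and -0.67 in hypoxia animals, and the SuHx value did not pass. The ATPase Psmc3 was at -0.43 (adjusted p = 0.0677) in carvedilol animals. Psmc3ip, which encodes a factor of meiotic recombination, had -2.74, -0.74 and -0.56 in carvedilol animals, against -0.09, 0.28 and 1.80 in normal animals, a difference of -1.49 ± 0.33 (adjusted p = 0.0054). One carvedilol animal at -2.74 and 1 normal animal at 1.80 lay far from the rest of their groups.

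**Figure D4:**
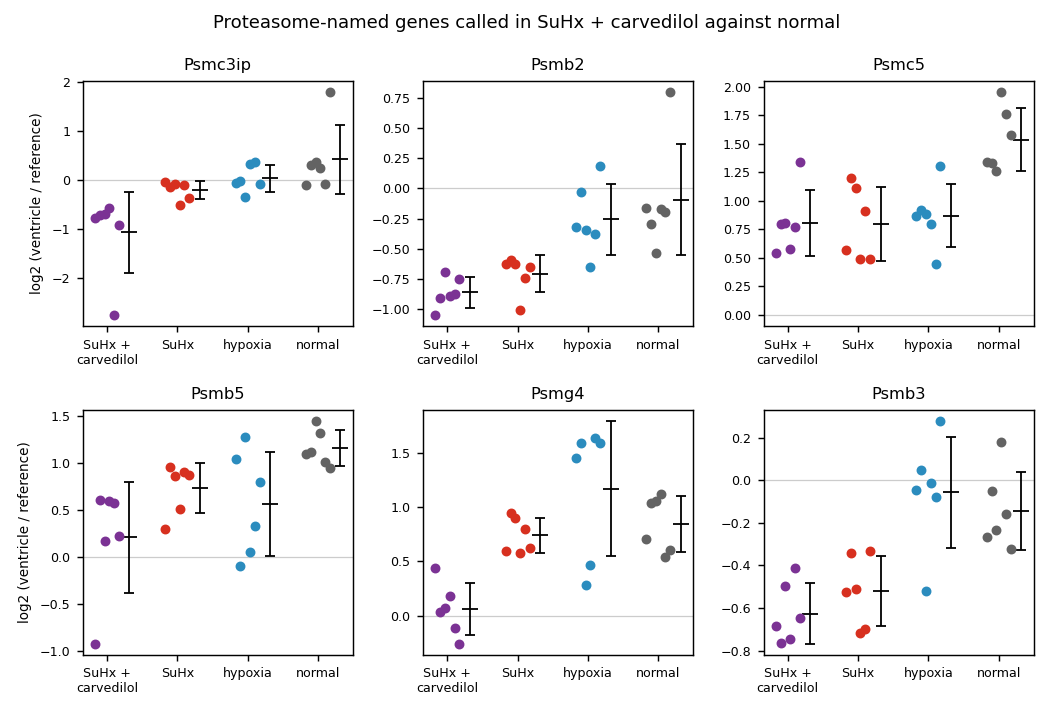
Log2 ratio of ventricle to reference (y axis) in each of 24 animals, by group, for the 6 genes that fell in carvedilol against normal animals. Points are animals and bars the mean with SD. Carvedilol and normal points overlap in Psmc5 alone of the 6.

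By role, 3 of 17 core genes fell with a median of -0.39 and 15 lower, and 1 of 16 cap genes with a median of -0.23 and 14 lower. Chaperones had 1 of 6 and a median of -0.43, activators and inhibitor none of 4 and -0.51. Besides 5 of the 6 that passed (Psmc5 overlapped), 3 more genes lay wholly lower in carvedilol animals: Psmc3, Psmb6 at -0.58 (adjusted p = 0.0605) and Psme1 at -0.58 (adjusted p = 0.107). That made 8 of 46, beside 7.69% of all tested genes. Core means per animal were -0.71, -0.48 and -0.33 in carvedilol animals, -0.49, -0.19 and -0.08 in SuHx animals and -0.24, -0.05 and 0.02 in normal animals. Cap means were -0.31, 0.10 and 0.30 in carvedilol animals, -0.16, 0.11 and 0.23 in SuHx animals and -0.04, 0.30 and 0.44 in normal animals. Cap minus core averaged 0.55 ± 0.10 in carvedilol animals, 0.29 ± 0.09 in SuHx animals, -0.20 ± 0.21 in hypoxia animals and 0.33 ± 0.20 in normal animals (SD, n = 6).

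Cardiomyocyte markers moved beside these falls. In carvedilol against normal animals 7 of 12 cardiomyocyte genes rose, beside 2.27% of all tested genes, among them Tnnt2 at 3.02 (adjusted p = 3.15e-05) and Tnni3 at 3.06 (adjusted p = 0.00012), and against SuHx animals 3 rose. The other 5 did not pass against normal animals, and 3 of them were lower: Ryr2 at -1.62 (adjusted p = 0.153), Myh6 at -0.26 (adjusted p = 0.848) and Atp2a2 at -0.02 (adjusted p = 0.948). Macrophage genes rose in 3 of 11, among them C1qa at 2.14 (adjusted p = 0.000572) and Lyz2 at 1.43 (adjusted p = 0.000501). Of 6 endothelial genes Vwf rose (1.82, adjusted p = 0.0147), and of 3 erythroid genes Alas2 rose (2.20, adjusted p = 0.00528). The mean of 10 macrophage genes was 1.77, 1.96 and 2.51 in carvedilol animals and 0.96, 1.17 and 1.56 in normal animals. The part of these cells in the result was not tested.

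All carvedilol animals, and hypoxia animals 5 and 6, carry label numbers over 100, whose meaning the labels do not give. With a term for them, which rests on those 2 hypoxia animals, only Psmg4 of the 6 genes passed. With the first array of each animal alone, Psmb2, Psmc3ip and Psmc5 passed. With probes complete on every array 11 of 35 fell, or 31.4%, where 24.5% of all genes passed. On single probes 5 of 65 fell, beside 7.33% of all probes.

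The inducible beta subunits of the immunoproteasome did not pass in any comparison. Psmb8 was -0.39 ± 0.31 (adjusted p = 0.442) in carvedilol against normal animals, -0.53 ± 0.31 (adjusted p = 0.514) in SuHx against normal and -0.60 ± 0.31 (adjusted p = 0.207) in hypoxia against normal. Psmb9 was 0.23 ± 0.23 (adjusted p = 0.569), 0.36 ± 0.23 (adjusted p = 0.576) and 0.33 ± 0.23 (adjusted p = 0.379) in the same order. Psmb8 values were lower and Psmb9 values higher than in normal animals, and none passed. In SuHx against normal animals Psmb8 was at -0.19 (adjusted p = 0.817), -0.11 (adjusted p = 0.91), -0.12 (adjusted p = 0.922) and -0.27 (adjusted p = 0.645) without SuHx animals 1, 2, 4 or 5. One of its 2 tested probes had a value in only 4 SuHx animals, so losing any of these drops that probe. The 2 probes gave -0.95 and -0.16 in this comparison. Psmb8 had -1.87, -1.26 and -0.17 in carvedilol animals, -1.61, -1.21 and -0.88 in SuHx animals, -2.01, -1.45 and -0.35 in hypoxia animals, against -1.28, -0.78 and -0.04 in normal animals. These ranges overlapped throughout.

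Psmb10 gave different answers by probe. Its gene value was -0.16 (adjusted p = 0.835) in hypoxia against normal animals, from probes at 0.42 and -1.32, and the lower of these had a value on 27 of 40 arrays. In SuHx against hypoxia animals the probes were at -0.63 and 1.15, and the gene at 0.05 (adjusted p = 0.956). Its promoter is shown because it holds the interferon-stimulated response element (a pair of GAAA boxes with a spacer of 2 bases) in 2 places, at -73 to -64 and -17 to -8, both in capitals (chr19:50743243-50743542, minus strand, GRCr8, RefSeq).
Psmb10: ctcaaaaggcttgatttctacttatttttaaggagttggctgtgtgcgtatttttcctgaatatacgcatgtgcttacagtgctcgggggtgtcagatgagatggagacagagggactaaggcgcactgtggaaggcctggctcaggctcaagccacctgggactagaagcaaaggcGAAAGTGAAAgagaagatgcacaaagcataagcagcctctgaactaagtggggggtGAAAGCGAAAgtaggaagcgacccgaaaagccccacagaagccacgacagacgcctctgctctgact

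That motif was present on either strand in 7 of 44 proteasome windows (15.9%), in Psma4, Psmb10, Psmb3, Psmb8, Psmd7, Psme2 and Psmg4, against 1034 of 27457 windows (3.77%). Of the genes that fell it was in none of 7 in hypoxia animals, and in Psmb3 and Psmg4 among the 6 in carvedilol animals.

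**Figure D5:**
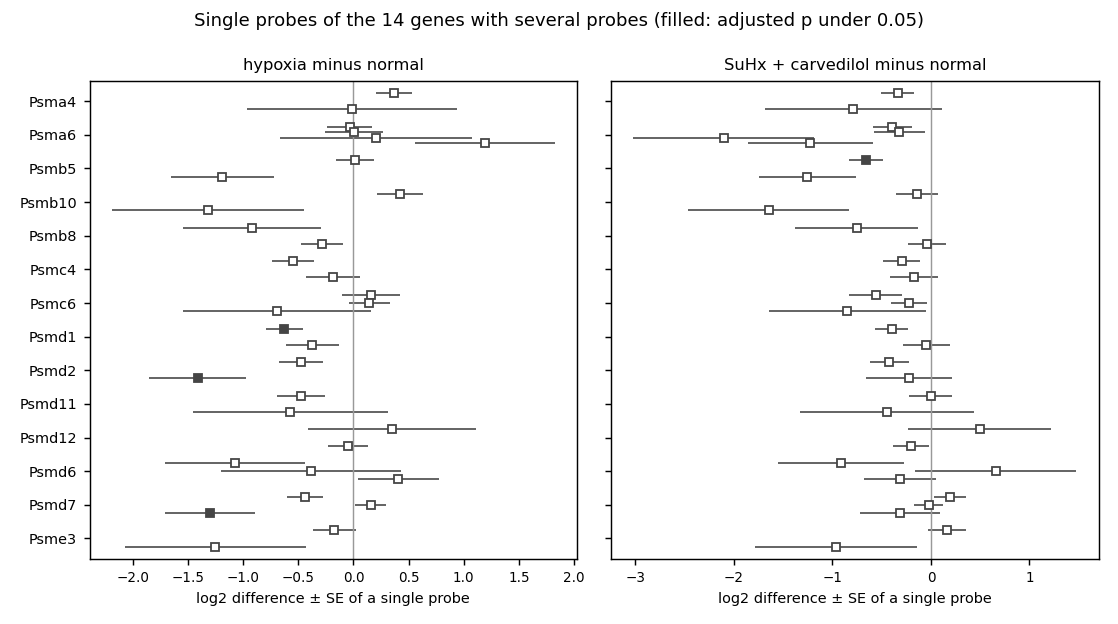
Log2 differences with standard errors (x axis) of the single probes of the 14 genes with several probes (y axis), in hypoxia minus normal and SuHx with carvedilol minus normal. Filled squares passed at an adjusted p under 0.05. Psmb5, Psmb10 and Psmd7 have probes far apart in hypoxia, such as -1.19 and 0.01 for Psmb5.

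The alternative cap and the chaperones followed no passing pattern apart from Psmg4. Psme1 was -0.58 ± 0.23 (adjusted p = 0.107) in carvedilol against normal animals, -0.63 ± 0.23 (adjusted p = 0.215) in SuHx against normal and -0.42 ± 0.23 (adjusted p = 0.244) in hypoxia against normal. Its partner Psme2 was at -0.45 (adjusted p = 0.0722), -0.18 (adjusted p = 0.727) and -0.09 (adjusted p = 0.761) in that order. Psme1 was lower in all 3 groups, and with arrays set to equal spread it passed in each of them. The inhibitor Psmf1 was at -0.84 (adjusted p = 0.0716) in carvedilol against normal animals. Without carvedilol animal 6 it was at -0.47 (adjusted p = 0.0872), and it passed without carvedilol animal 1 or 5. Psmg2, a chaperone of the alpha ring, had the widest spread, at -1.59 (adjusted p = 0.358) in carvedilol against SuHx animals, from a probe with a value on 33 of 40 arrays. Carvedilol animal 1 lay at -7.03 and the other 5 between -1.13 and 0.06, and without it the difference of Psmg2 was -0.48 (adjusted p = 0.65). Psmd9, a chaperone of the base, was at -0.23 (adjusted p = 0.514) in hypoxia against normal animals.

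Genes that work with the proteasome were read from lists. In hypoxia against normal animals 1 of 12 associated proteins fell, the shuttle Rad23b (-0.84, adjusted p = 0.00537). Of 8 genes of the Nfe2l1 axis 3 fell: Keap1, which restrains Nfe2l2 (-1.85, adjusted p = 0.000431), Vcp, the p97 segregase (-1.91, adjusted p = 0.0134), and Mafk, a partner of the factors on DNA (-2.41, adjusted p = 0.0266). Of 11 muscle ubiquitin ligases 2 fell, Fbxo32 (-2.41, adjusted p = 0.00587) and the chaperone-linked Stub1 (-0.65, adjusted p = 0.0129). Of 10 antigen processing and interferon genes 2 fell, the peptide transporter Tap2 (-1.22, adjusted p = 0.00844) and Stat2 (-1.50, adjusted p = 0.025), and none of 3 ubiquitin or E1 genes passed. No listed gene rose. Of all tested genes 11.5% fell in this comparison.

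In SuHx against hypoxia animals none of these lists had a fallen gene. Rad23b rose (0.99, adjusted p = 0.00164), as did Keap1 (1.35, adjusted p = 0.00483), Vcp (1.54, adjusted p = 0.044) and Mafk (3.56, adjusted p = 0.00235). Of the ligases 4 of 11 rose: Stub1 (0.65, adjusted p = 0.0131), Fbxo32 (1.73, adjusted p = 0.0392) and the sarcomere ligases Trim63 (1.59, adjusted p = 0.0154) and Trim54 (1.53, adjusted p = 0.0453). Stat2 rose too (1.82, adjusted p = 0.00793). For comparison, 9.78% of the 9775 genes rose and 1.79% fell. No listed gene passed in SuHx against normal animals.

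Carvedilol against normal animals gave a fall of Ufd1, the cofactor of p97 (-1.18, adjusted p = 0.0215), and of Adrm1, a ubiquitin receptor of the base (-2.61, adjusted p = 0.028). Mafg, a small Maf partner of Nfe2l1, rose (0.64, adjusted p = 0.0291), but with a term for animal numbers over 100 its difference from normal turned to -0.16. It rose against SuHx animals as well (0.95, adjusted p = 0.0202). Against normal animals 8.75% of the 9775 genes fell and 2.27% rose. No ligase, ubiquitin or antigen processing gene passed in either comparison.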

How the data were processed

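RNA of 24 right ventricles was hybridised on 40 2-colour Agilent rat arrays, with ventricle RNA in Cy5 and the reference in Cy3 per the labels. The authors deposited lowess-normalised log2 ratios per spot, made with GenePix Pro and the marray package per the series' design text. One deposited table is titled log10, but its values from -13.6 to 14.0 are too wide for that, and they were read as log2. No source used here gives the background correction, or says why 34.9% of cells are empty.

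Arrays of an animal were averaged, so n counts animals. Probes with values in at least 4 animals of every group were kept (21567) and probes of a gene were averaged after a shift to a shared level. The fit was moderated limma (version 3.58.1, under R 4.3.3) on all 24 animals with 1 mean per group, with Benjamini-Hochberg adjustment over 9775 genes. The tests were run on simulated data first. Nothing in the labels says that same-numbered animals belong together, and their deviations correlated between -0.26 and 0.18, so the numbers do not pair animals. No depth is known for arrays, and the number of animals limits the precision.

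Members and lists were chosen with earlier results of these data known. Genes were named from a rule: all that passed, the 2 lowest adjusted p per role and comparison, the inducible subunits, Psme1 and Psme2, and the 3 lowest of each partner list. A few others, such as Psmd8, Psmg2 and cell type markers, were named after their values were seen. Promoters came from RefSeq, and 44 of 49 genes matched.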

Additional observations from a re-analysis of the deposited data

Results flagged for a closer look

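Of 196 sets of animals examined (46 tested genes and 3 means, in 4 groups), 27 held 1 animal far from the other 5 by Dixon's test. Sets held 6 animals, except that Psmg2 had a value in 5 hypoxia animals. Chance alone flags about 1 in 20 sets that are independent and normally distributed. The sets here share animals, and the other tested genes were not examined in this way. Whether proteasome genes hold more flags than other genes was therefore not tested. The flags lay in carvedilol animals 13 times, SuHx animals 6 times, hypoxia animals 5 times and normal animals 3 times.

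Carvedilol animal 1 was the low one in 9 genes across core, cap, activator and chaperone: Psma1 at -1.11, Psmb5 at -0.92 (the others 0.17 to 0.61), Psmb6 at -0.29, Psmb7 at -1.24, Psmc3 at -0.36, Psmd2 at -1.25, Psmd8 at -0.67, Psme1 at 0.40 and Psmg2 at -7.03 (the others -1.13 to 0.06). Carvedilol animal 5 was low in Psma6 at -2.69 and in Psmc3ip at -2.74. Psmc5 was high in carvedilol animal 6, at 1.34, above the other 5 at 0.54 to 0.80, and it is this animal that overlaps normal animals. Psme2 was high in carvedilol animal 3, at -0.23.

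In SuHx animals the low values were Psma4 at -1.40 (animal 5), Psma1 at -0.81, Psmb2 at -1.01 and Psmc4 at -0.22 (animal 4), and Psmg2 at -1.40 (animal 3). Psmg1, a chaperone of the alpha ring, was high at 1.85 in animal 3, where the others lay from -0.41 to 0.17. In hypoxia animals the low values were Psma6 at 0.13 and Psmd2 at -2.38 (animal 4), Psmd10 at -0.62 and Psmd8 at -4.30 (animal 3), and Psme3ip1 at -1.95 (animal 1). The 2 sparsest hypoxia arrays, with 19264 and 20120 spots, belong to hypoxia animals 3 and 4. The part of those arrays in these values was not tested. In normal animals, animal 6 was high in Psmb2, at 0.80, and in Psmc3ip, at 1.80, and animal 3 was low in Psmc2, at 0.37.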

How the results depend on the processing

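The median log2 difference of the proteasome genes stayed within the spread of the animals in all 5 comparisons under the 12 other settings (1 of them, plain averaging of probes, chosen after seeing the data) and the 12 omissions of 1 animal: -0.33 to -0.13 in hypoxia against normal animals, -0.18 to -0.07 in SuHx against normal, -0.02 to 0.24 in SuHx against hypoxia, -0.25 to -0.06 in carvedilol against SuHx and -0.39 to -0.23 in carvedilol against normal. Counts of passing genes moved more, and which cause moved them was not tested. In hypoxia against normal animals (7) there were 11 with arrays scaled to equal spread and 1 with only the 2 groups fitted, where there are fewer animals to estimate the spread. In SuHx against normal animals (0) there were 2 after quantile normalisation, 3 at equal spread, 3 of 35 tested with probes complete on every array and 1 when the 2 sparsest hypoxia arrays were dropped. In SuHx against hypoxia animals (4) there were 2 with a term for animal numbers over 100, 9 without those 2 arrays and 1 with only the 2 groups fitted. In carvedilol against SuHx animals (0) there was 1, Psmg4, without those 2 arrays. In carvedilol against normal animals (6) there were 11 of 35 tested with probes complete on every array, 3 with the first array of each animal and 1 with the term for animal numbers. Leaving out 1 animal gave 5 to 10, 0 to 1, 3 to 7, 0 to 0 and 4 to 7 in this order. With the animal's number within its group as a replicate block the counts were 7, 0, 4, 0 and 4.

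Over all tested genes, the settings other than omissions of 1 animal gave these counts more than 1.5 times apart from the reported ones. In hypoxia against normal animals (1212): 481 (2 groups fitted), 797 (complete probes), 801 (values in at least 2 animals). In SuHx against normal animals (92): 14 (first array), 45 (values in at least 2 animals), 61 (single probes), 210 (2 groups fitted), 229 (without the 2 arrays), 235 (quantile normalisation), 259 (complete probes), 306 (equal spread), 43 (replicate block). In SuHx against hypoxia animals (1131): 434 (2 groups fitted). In carvedilol against SuHx animals (91): 0 (2 groups fitted), 1 (first array), 42 (values in at least 2 animals), 140 (equal spread), 202 (without the 2 arrays), 57 (replicate block). In carvedilol against normal animals (1077): 263 (animal numbers), 444 (first array). Leaving out 1 animal gave 821 to 1269, 32 to 140, 820 to 1213, 22 to 117 and 742 to 1128 genes in the order of comparisons above. With complete probes fewer genes were tested, and the shares called were 24.7%, 8.01%, 26.1%, 3.9% and 24.5%. Psmb10 in SuHx against hypoxia animals turned from 0.05 to -0.63 with probes complete on every array, and to -0.63 without the 2 sparsest hypoxia arrays. It turned to -0.69, -0.72 and -0.69 without hypoxia animal 2, 3 or 4. Its probe at 1.15 had a value in only 4 hypoxia animals and drops out in these settings, which leaves the probe at -0.63. Mafg in carvedilol against normal animals turned from 0.64 to -0.16 with the term for animal numbers. Of the other gene values by setting, 3658 kept direction and side of the threshold, 147 lost the call, 67 gained it and 76 changed sign without passing either way. The term for animal numbers is told from the carvedilol group by 2 hypoxia animals alone. Signal over background was not analysed here, so the lowest ratios have no bound.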
